A study of Homo sapiens with 11 samples.

Results

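The members are 36 genes known as direct targets of the transcription factor p53, grouped by role into arrest and growth control, apoptosis and death receptors, repair and nucleotide supply, and stress and metabolism. They were taken from a list of symbols, each read from the transcript cluster (a group of probes for 1 transcribed locus) that carries that symbol alone, and from the cluster with the highest mean level where a gene had several. Such a cluster was found for 33 of the 36, and 31 of these reached the level filter, a highest log2 level of at least 3.80 over the 11 arrays, beside 12147 genes of 22109 in the whole table. All 31 also reached it without the compound arrays. PTCHD4 (2.53 to 2.94) and SPATA18 (2.66 to 3.00) lay below the filter on every array, TNFRSF10C was listed only together with LOC254896, and BTG2 and FDXR were not analysed here.

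The series measured expression in MV4-11, an established acute myeloid leukaemia line with a KMT2A rearrangement, with 1 array for each condition. On 8 arrays the cells carried shRNAs, and every one of them, the luciferase control shLuc included, had 24 hours of doxycycline at 3 µM. The other 7 of these arrays hold the RUNX1, RUNX2 and RUNX3 shRNAs in each combination, singly, in pairs and all 3 together. The RUNX proteins are DNA-binding factors that regulate blood cell genes. Cells of the last 3 arrays had 6 hours of DMSO, of Chb-M' at 1 µM or of Chb-50 at 1 µM, and the series text describes the compounds as alkylating PIP conjugates. PIP stands for pyrrole-imidazole polyamide, a class of molecules that bind the minor groove of DNA. No change in structure between Chb-M' and Chb-50 is named in the labels, which also do not say whether the transduced cells were clones or pools.

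p53 is kept low in unstressed cells by the ubiquitin ligase MDM2, and DNA damage and other stresses release it from that control. It then binds DNA at a pair of similar decamers and raises the transcription of genes that stop the cell cycle, start apoptosis, repair DNA or adjust metabolism. In blood cells the apoptotic branch, through BH3-only proteins and death receptors, is a well-known outcome of p53 activity.

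Promoter windows in RefSeq (GRCh38.p14, 250 bases before to 50 bases after a transcript start) were listed for 26 of the 36 members. A single p53 decamer, searched on both strands, stood in the windows of 8 of these 26 (30.8%), beside 8.06% of all 27305 symbols with a window. The 8 were AEN, DDB2, FAS, FDXR, PLK2, PTCHD4, RPS27L and SESN1. A pair of decamers at most 13 bases apart stood in 2 of 26 (7.69%), DDB2 and PTCHD4, beside 0.0366% of all symbols. The following short stretches show these matches, with the decamers in capitals, 5′ to 3′ on the strand of the gene.
DDB2, chr11:47214979-47214999, plus strand: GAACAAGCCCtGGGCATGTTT
PTCHD4, chr6:48111198-48111222, minus strand: atgggAGGCTTGCCCAGACTTGCCC
FAS, chr10:88991299-88991328, plus strand: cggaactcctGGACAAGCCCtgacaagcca
SESN1, chr6:109009018-109009047, minus strand: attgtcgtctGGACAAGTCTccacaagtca
RPS27L, chr15:63157517-63157546, minus strand: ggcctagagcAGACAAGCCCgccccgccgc
The DDB2 pair begins 5 bases after the start with 1 base between its decamers, and the PTCHD4 pair lies within the 25 bases before the start with none between. A match is a description of letters and was not tested for binding.

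The core RUNX motif TGTGGT, on either strand, stood in the windows of 4 of 26 members (15.4%: GDF15, PTCHD4, TRIAP1 and ZMAT3), beside 15.6% of all symbols. Its variant TGCGGT stood in 5 of 26 (19.2%: BAX, CYFIP2, PTCHD4, SESN1 and SESN2), beside 8.67%. In 2 members a p53 decamer and a RUNX motif shared a window, and 0 of these matches overlapped. The 250 bases before the start are shown for 3 members with some of the larger compound differences below or, for AEN, a pattern across the knockdown arrays. Capitals mark the p53 decamer in PLK2 and AEN, and in SESN2, whose window holds no decamer, the TGCGGT motif read on the opposite strand.
PLK2, chr5:58460087-58460336, minus strand: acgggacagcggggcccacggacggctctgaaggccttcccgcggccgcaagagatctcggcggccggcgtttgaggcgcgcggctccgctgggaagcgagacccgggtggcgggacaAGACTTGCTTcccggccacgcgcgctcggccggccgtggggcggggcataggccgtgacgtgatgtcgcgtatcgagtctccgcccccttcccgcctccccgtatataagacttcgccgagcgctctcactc
AEN, chr15:88621090-88621339, plus strand: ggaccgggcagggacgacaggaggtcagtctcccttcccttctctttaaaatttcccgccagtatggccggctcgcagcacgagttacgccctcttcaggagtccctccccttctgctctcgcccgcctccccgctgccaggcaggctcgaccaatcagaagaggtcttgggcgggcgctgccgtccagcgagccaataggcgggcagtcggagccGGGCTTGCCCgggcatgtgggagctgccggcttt
SESN2, chr1:28259268-28259517, plus strand: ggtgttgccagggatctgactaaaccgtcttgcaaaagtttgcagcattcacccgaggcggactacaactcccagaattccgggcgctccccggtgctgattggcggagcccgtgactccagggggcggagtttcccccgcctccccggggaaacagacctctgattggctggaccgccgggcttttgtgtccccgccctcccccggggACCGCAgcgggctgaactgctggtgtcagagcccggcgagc

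The median level of the genes tested was 5.86 to 5.91 on each array. Of the myeloid markers 8 of 8 with a cluster were among the genes tested, with levels from 3.84 to 11.6, while 0 of 4 T cell, 0 of 2 erythroid and 0 of 4 fibroblast markers reached the filter on any array. Among B cell markers 1 of 3 (CD79A) and among epithelial markers 2 of 4 (KRT8 and KRT18) reached it, at 4.97 or lower. RUNX2 read 5.56 to 5.82 with its shRNA and 6.00 to 6.30 without. RUNX3 read 7.65 to 7.87 with its shRNA and 7.70 to 8.37 without, so these groups overlapped. A cluster shared by RUNX1 and LOC100506403 read 3.96 to 4.26 with the RUNX1 shRNA and 4.20 to 4.45 without. On the array labelled shRUNX1+shRUNX2 that cluster was at 4.26, inside the range without the shRNA.

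After 6 hours with Chb-M', p53 targets of all 4 roles lay above the DMSO array. The difference of the 2 arrays was above 0 for 29 of 31 members, beside 54.3% of all genes tested, with a median log2 difference of 0.49 beside 0.02. At least 2-fold higher were 5 members, SESN2, PLK2, TP53INP1, EDA2R and SESN1, beside 0.313% of all genes, 12 at least 1.5-fold higher, beside 2.25%, and 0 were at least 2-fold lower, beside 0.56%. With a limma fit that borrows the spread of the knockdown arrays, GADD45A, XPC and TNFRSF10B rose (3 of 31, beside 0.132% of all genes) and ASCC3 fell (1 of 31, beside 0.477%), at an adjusted p under 0.05. At an unadjusted p under 0.05, 20 members lay higher, beside 6.31% of all genes, and 2 lower, beside 7.59%. The role medians were 0.49 for arrest, 0.54 for apoptosis, 0.66 for repair and 0.37 for stress and metabolism. In bulk RNA, fewer cells of one kind and less RNA in each cell cannot be told apart. The DMSO and compound arrays have no replicates, so every interval and p below assumes that they vary as the knockdown arrays do. That spread is what 3 additive shRNA terms leave over, so any interaction between the shRNAs enters it.

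**Figure D1:**
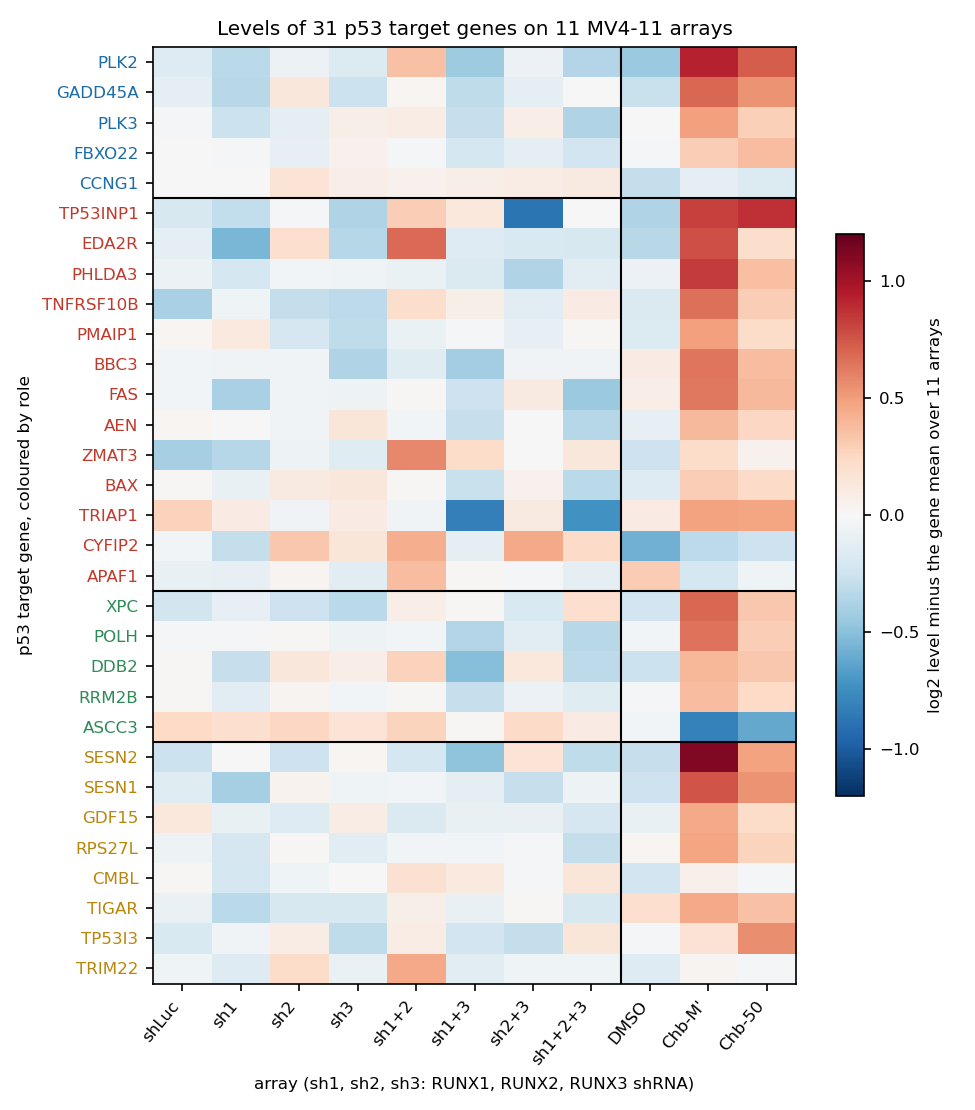
Level of each of the 31 members tested on each of the 11 arrays, as log2 level minus the gene's mean over the 11 arrays (red above, blue below), with rows grouped by role and the knockdown arrays left of the vertical line. The columns of Chb-M' and Chb-50 are red for most rows, ASCC3 is blue in both, and TRIAP1 is blue on the 2 arrays that carry the RUNX1 and RUNX3 shRNAs together.

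With Chb-50 the same comparison gave smaller values. The difference from DMSO was above 0 for 29 of 31 members, beside 49.5% of all genes, with a median of 0.34 beside 0.00. TP53INP1 and PLK2 were at least 2-fold higher (2 of 31, beside 0.14%), and 6 members at least 1.5-fold higher, beside 1.39%. Limma called 0 of 31 members and 0 of 12147 genes, with 1114 genes (9.17%) at an unadjusted p under 0.05. At that unadjusted threshold 14 members lay higher, beside 3.94% of all genes, and 1 lower, beside 5.24%. The role medians were 0.40 for arrest, 0.37 for apoptosis, 0.33 for repair and 0.28 for stress and metabolism. Both compound comparisons use the same DMSO array, so that their values are given side by side and not as independent results.

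Both compound arrays read above every one of the other 9 arrays for 23 of 31 members (74.2%), beside 9.85% of all genes. Both read below all others for 1 member, ASCC3, beside 9.82%. The other 7 members, APAF1, CCNG1, CMBL, CYFIP2, EDA2R, TRIM22 and ZMAT3, had at least 1 compound array inside the range of the remaining arrays. Of the other 9 arrays only DMSO shares the 6 hours of the compound arrays. The rest are transduced cells with 24 hours of doxycycline, so both counts mix compound with culture set. TIGAR was counted although DMSO (6.66) already read above its highest knockdown array (6.53). CCNG1 was not counted, with DMSO (8.09) below its lowest knockdown array (8.38). The part of the culture set was not tested. Without the array labelled shRUNX1+shRUNX2 the count of 23 became 24, beside 10.4% of all genes, and leaving out an array cannot lower it.

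In the arrest group, GADD45A encodes a small stress protein that blocks the cycle after DNA damage. Its log2 level was 6.41 with DMSO, 7.36 with Chb-M' and 7.21 with Chb-50, and on the 8 knockdown arrays its lowest, median and highest levels were 6.34, 6.56 and 6.81. Both compound arrays lay above all others. It rose by 0.95 with Chb-M' (SE 0.136, limma adjusted p = 0.0447), and the Chb-50 difference was 0.80 (adjusted p = 0.189). PLK2, a polo-like kinase induced by stress, read 5.19 with DMSO, 6.56 with Chb-M' and 6.36 with Chb-50, against 5.21, 5.48 and 5.98 for the lowest, median and highest knockdown arrays. Its differences were 1.37 (SE 0.259, limma adjusted p = 0.0791) and 1.17 (adjusted p = 0.231), so neither passed the test although both exceeded 2-fold.

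Smaller differences marked the rest of the arrest group. The kinase gene PLK3 read 5.29 with DMSO, 5.79 with Chb-M' and 5.58 with Chb-50. FBXO22, a subunit of a ubiquitin ligase, read 7.13, 7.45 and 7.52 on the same arrays. CCNG1, which encodes cyclin G1, read 8.09, 8.26 and 8.21, all below its lowest knockdown array (8.38). It therefore stayed within the span of the remaining arrays, although both compounds lay above DMSO by 0.17 and 0.12.

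Among the apoptosis genes the death receptors that are members lay higher on the compound arrays than with DMSO. The receptor gene TNFRSF10A, listed only for context, differed from DMSO by 0.09 with Chb-M' and by -0.10 with Chb-50. TNFRSF10B, the TRAIL receptor DR5, read 6.48 with DMSO, 7.31 with Chb-M' and 6.95 with Chb-50, against 6.27, 6.56 and 6.87 for the lowest, median and highest knockdown arrays. It rose by 0.84 with Chb-M' (SE 0.126, limma adjusted p = 0.0486), and the Chb-50 difference was 0.47 (adjusted p = 0.325). FAS, the receptor for Fas ligand, read 5.01 with DMSO, 5.55 with Chb-M' and 5.32 with Chb-50, above a highest knockdown array of 5.04. EDA2R, a receptor for an ectodysplasin isoform, already differed among the knockdown arrays. It read 5.83 with DMSO, 6.94 with Chb-M' and 6.37 with Chb-50, but already 6.85 on the array labelled shRUNX1+shRUNX2 against a knockdown median of 6.00. Its Chb-M' difference was 1.12 (SE 0.376, limma adjusted p = 0.257). The decoy receptor TNFRSF10C, on the cluster it shares with LOC254896, read 5.09 with DMSO, 5.62 with Chb-M' and 5.22 with Chb-50, with a highest knockdown array of 4.98.

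TP53INP1, a p53 cofactor in stress and autophagy, was the member with the highest Chb-50 difference. It read 4.65 with DMSO, 5.83 with Chb-M' and 5.88 with Chb-50, while the lowest, median and highest knockdown arrays were 4.14, 4.90 and 5.30. Differences of 1.18 and 1.23 with an SE of 0.384 did not pass limma (adjusted p = 0.24 and 0.405). PHLDA3, a repressor of the survival kinase AKT, read 4.50 with DMSO, 5.41 with Chb-M' and 4.94 with Chb-50, above a knockdown range of 4.21 to 4.54. The Chb-M' difference was 0.91 (SE 0.169, limma adjusted p = 0.079).

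The BCL2 family members stand at the centre of the mitochondrial route. The BH3-only genes PMAIP1 (Noxa) and BBC3 (Puma) lay above DMSO by 0.65 and 0.55 with Chb-M' and by 0.38 and 0.27 with Chb-50. The pore-forming effector BAX lay above it by 0.45 and 0.38. All 3 read higher on both compound arrays than on any other array, and none passed limma (adjusted p of 0.156, 0.253 and 0.283 with Chb-M'). The exonuclease AEN (0.49 and 0.34), the RNA-binding factor ZMAT3 (0.47 and 0.30), the apoptosis inhibitor TRIAP1 (0.38 and 0.37) and the WAVE complex subunit CYFIP2 (0.27 and 0.32) also had positive differences. CYFIP2 nevertheless read 4.23 with Chb-M' and 4.29 with Chb-50 against 3.96 with DMSO and a knockdown median of 4.73.

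APAF1, the scaffold of the apoptosome, was the single apoptosis gene with a negative difference. It read 8.15 with DMSO, 7.63 with Chb-M' and 7.80 with Chb-50. The knockdown arrays had a lowest level of 7.72, a median of 7.79 and a highest of 8.22, so that Chb-50 lay inside their range. The differences were -0.52 (95% interval -0.98 to -0.06, limma adjusted p = 0.302) and -0.36 (interval -0.82 to 0.10).

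The repair group held the smallest adjusted p among the members. XPC, the damage sensor that opens global nucleotide excision repair, read 7.19 with DMSO, 8.11 with Chb-M' and 7.75 with Chb-50, against 7.10, 7.28 and 7.62 for the lowest, median and highest knockdown arrays. It rose by 0.92 with Chb-M' (SE 0.129, limma adjusted p = 0.0426), and the Chb-50 difference was 0.55 (adjusted p = 0.254). DDB2, which recognises ultraviolet lesions and whose start carries the decamer pair shown above, read 7.46 with DMSO, 8.12 with Chb-M' and 8.04 with Chb-50. Its highest knockdown array, shRUNX1+shRUNX2, was close to these at 8.00, and the Chb-M' difference of 0.66 had an adjusted p of 0.285. POLH, the translesion polymerase eta, read 7.15, 7.83 and 7.47 against a highest knockdown array of 7.20 (Chb-M' difference 0.69, limma adjusted p = 0.0813). RRM2B, the p53-inducible subunit of ribonucleotide reductase, read 8.07, 8.45 and 8.32 against 8.12.

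ASCC3 went the other way. It encodes a helicase that unwinds DNA for the repair of alkylated bases. The level was 7.41 with DMSO, 6.63 with Chb-M' and 6.83 with Chb-50, and the knockdown arrays lay at 7.46, 7.66 and 7.71 for lowest, median and highest, so both compound arrays were below all others. It fell by 0.77 with Chb-M' (SE 0.113, 95% interval -1.04 to -0.51, limma adjusted p = 0.0486). With Chb-50 the difference was -0.58 (interval -0.84 to -0.31, adjusted p = 0.201).

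In the stress and metabolism group the sestrins, which restrain mTORC1 under stress, had the largest differences. SESN2 read 5.29 with DMSO, 6.69 with Chb-M' and 6.06 with Chb-50, against 5.09, 5.34 and 5.74 for the lowest, median and highest knockdown arrays. The Chb-M' difference of 1.40 (95% interval 0.73 to 2.06, limma adjusted p = 0.0871) was the largest of the 31 members, and that of Chb-50 was 0.76. SESN1 read 5.38 with DMSO, 6.39 with Chb-M' and 6.18 with Chb-50 against a highest knockdown array of 5.67, with differences of 1.00 (limma adjusted p = 0.0967) and 0.79. Both sestrins lay above all remaining arrays with either compound.

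The metabolic members differed less. GDF15, a stress cytokine, read 3.84 with DMSO, 4.38 with Chb-M' and 4.14 with Chb-50, against a highest knockdown array of 4.05 (Chb-M' difference 0.55, limma adjusted p = 0.0945). TP53I3, a quinone oxidoreductase, read 4.67 with DMSO, 4.87 with Chb-M' and 5.25 with Chb-50, so that here Chb-50 was the higher compound. TIGAR, which lowers fructose-2,6-bisphosphate, read 6.66, 6.91 and 6.81. RPS27L, a paralog of a ribosomal protein, had differences of 0.45 and 0.24, and the possible cross-reading of its paralog was not tested. The hydrolase CMBL (0.29 and 0.22) and the antiviral factor TRIM22 (0.19 and 0.15) stayed within the range of the other arrays.

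Every one of the 4 calls rested on the spread of the knockdown arrays. Without shRUNX1, GADD45A and XPC kept their calls (adjusted p = 0.042 and 0.0453) and TNFRSF10B and ASCC3 lost theirs (0.0562 and 0.053). Without any 1 of shLuc, shRUNX2, shRUNX3, shRUNX1+shRUNX2, shRUNX1+shRUNX3, shRUNX2+shRUNX3 or the triple knockdown none of the 4 passed (adjusted p up to 0.124), and none passed without the level filter (0.0651 to 0.0753).

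**Figure D2:**
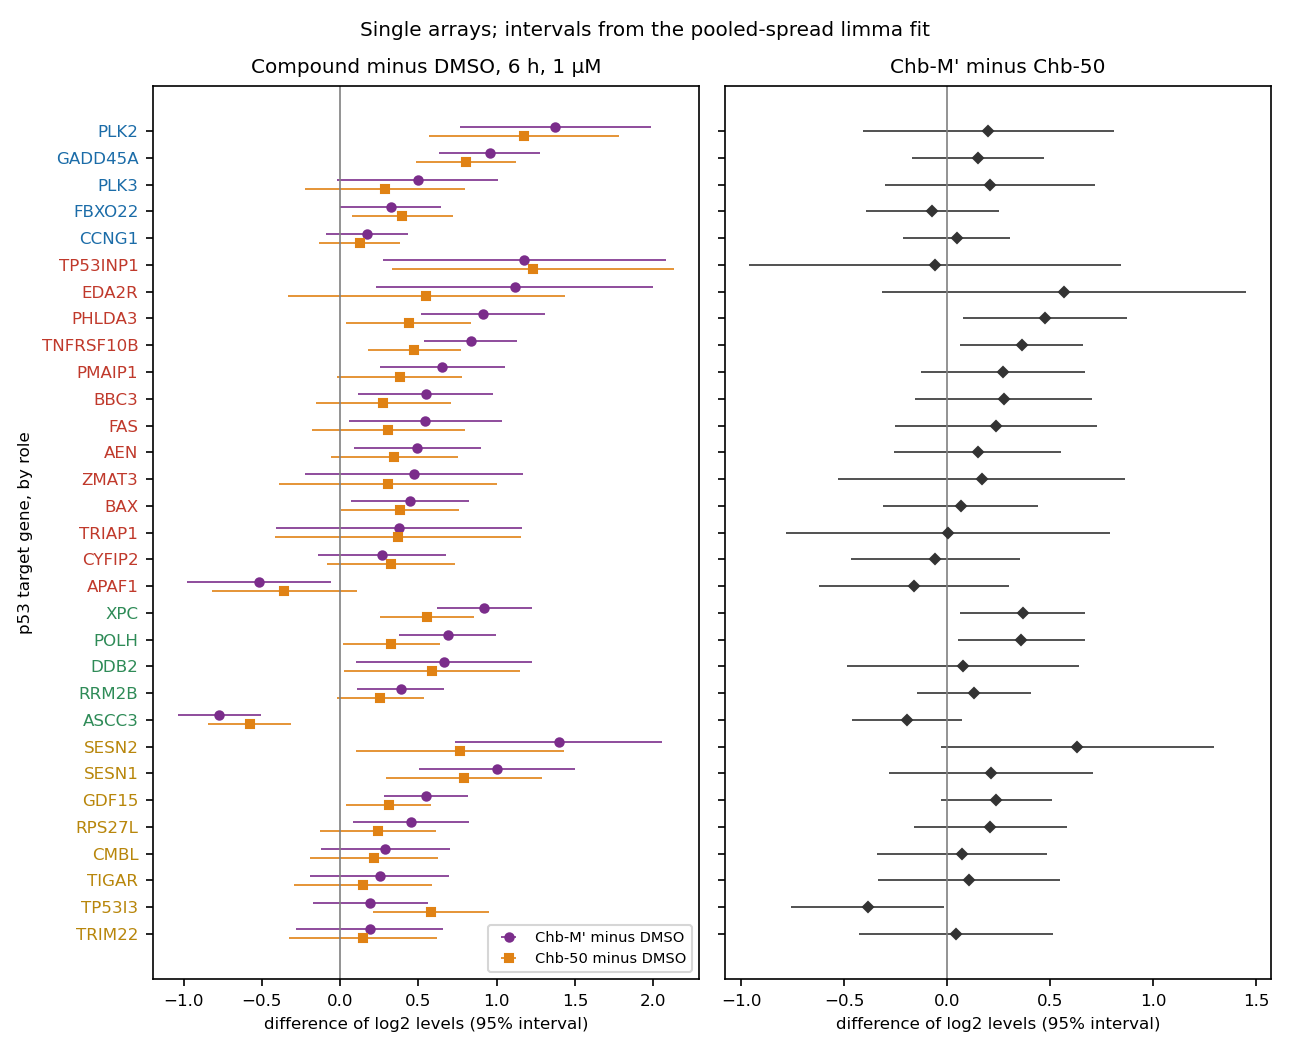
Differences of log2 levels between single arrays for the 31 members, with 95% intervals from the limma fit over 11 arrays; left, each compound minus DMSO, and right, Chb-M' minus Chb-50. On the left 29 of 31 points lie above 0 for either compound, and on the right 26 of 31 intervals cover 0.

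Chb-M' and Chb-50 were compared directly at the same dose and time, as 1 pair of compounds. The difference Chb-M' minus Chb-50 was above 0 for 25 of 31 members, beside 52.7% of all genes, with a median of 0.15 beside 0.01. Limma called 0 of 31 members and 0 of 12147 genes, with 869 genes (7.15%) at an unadjusted p under 0.05, among them 4 members higher with Chb-M', beside 3.82% of all genes, and 1 lower, beside 3.33%. The 4 were PHLDA3 (0.47, 95% interval 0.08 to 0.87), XPC (0.37, interval 0.06 to 0.67), TNFRSF10B (0.36, interval 0.06 to 0.66) and POLH (0.36, interval 0.05 to 0.67), at limma adjusted p from 0.608 to 0.622. TP53I3 lay lower with Chb-M' (-0.39, interval -0.76 to -0.02, adjusted p = 0.671). The largest difference was that of SESN2 (0.63, interval -0.03 to 1.29, adjusted p = 0.719).

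For 26 of 31 members the interval of the direct difference covered 0, which does not show that the compounds act alike. The interval of TP53INP1 ran from -0.96 to 0.85 and that of PLK2 from -0.41 to 0.81, wide enough to hold nearly a 2-fold difference in TP53INP1. GADD45A had a narrower interval, from -0.17 to 0.47. Of the 31 members 0 were at least 2-fold higher with Chb-M', beside 0.123% of all genes, 0 at least 2-fold lower, beside 0.0741%, and 1, SESN2, at least 1.5-fold higher, beside 1.23%.

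RUNX knockdown was read first from the triple knockdown against shLuc. The triple knockdown lay above shLuc for 10 of 31 members, beside 50.6% of all genes, with a median of -0.07 beside 0.00. TRIAP1, which holds back the apoptosome, was the 1 member at least 2-fold lower (-1.00), beside 0.873% of all genes, and 0 were 2-fold higher, beside 0.56%. ZMAT3 (0.53), TNFRSF10B (0.48), XPC (0.42) and TP53I3 (0.33) had the highest differences, and FAS (-0.41), AEN (-0.37) and PLK3 (-0.35) the lowest after TRIAP1. These are single arrays with no replicate check.

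**Figure D3:**
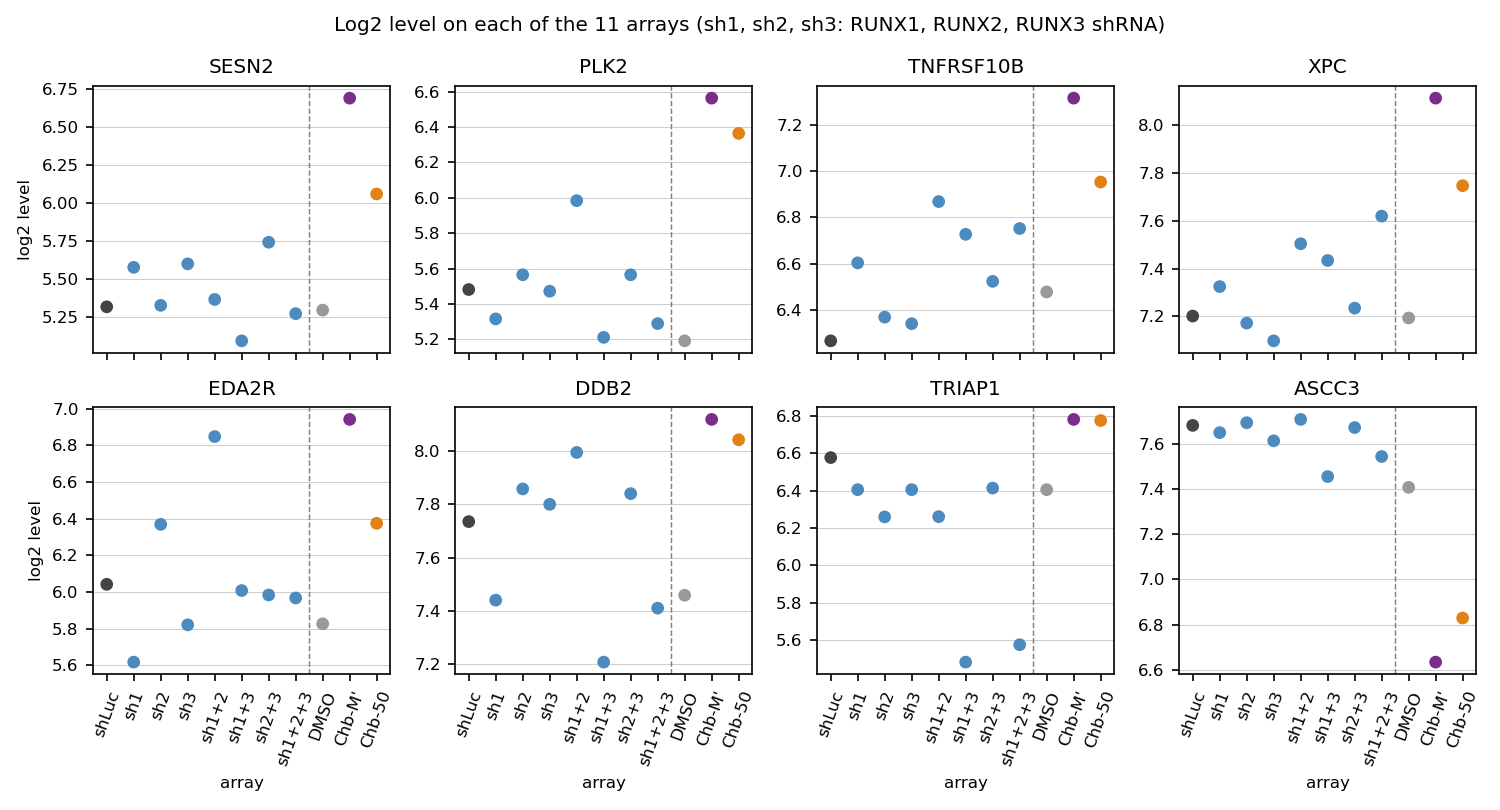
Log2 level of 8 members on each of the 11 arrays, 1 point per array, with the knockdown arrays left of the dashed line and DMSO, Chb-M' and Chb-50 right of it; each panel has its own axis, which does not start at 0. TRIAP1 is lowest on the arrays labelled shRUNX1+shRUNX3 (5.48) and triple knockdown (5.57), and EDA2R on shRUNX1+shRUNX2 (6.85) lies near its Chb-M' level (6.94).

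TRIAP1 was low on the 2 arrays with the RUNX1 and RUNX3 shRNAs together. It read 6.58 with shLuc, 6.40 with shRUNX1, 6.26 with shRUNX2, 6.40 with shRUNX3, 6.26 with shRUNX1+shRUNX2 and 6.41 with shRUNX2+shRUNX3. On shRUNX1+shRUNX3 it read 5.48 and on the triple knockdown 5.57, a clear gap below the other 6. The same 2 arrays were below the other 6 for 11 of 31 members (35.5%), beside 13.3% of all genes, and above them for 0, beside 15.3%. The 11 were AEN, ASCC3, BAX, DDB2, FBXO22, PLK2, PLK3, POLH, RRM2B, SESN2 and TRIAP1. This pattern was noticed in the data and has no test. The 12 listed cell cycle genes that p53 and p21 repress through the DREAM complex were all below shLuc in the triple knockdown (median -0.95). Over all genes 50.6% lay above shLuc there. All 12 had negative estimates for the RUNX1 (median -0.56), RUNX2 (-0.17) and RUNX3 (-0.31) shRNAs. Estimates above 0 made up 52.8%, 50.9% and 52.1% of all genes. CDKN1A, the gene of p21, was itself below shLuc in the triple knockdown (-0.38). The part of these genes in the result was not tested.

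TNFRSF10B and XPC were the 2 members that read higher on every array with the RUNX1 shRNA than on every array without it. TNFRSF10B read 6.60, 6.87, 6.73 and 6.75 on the arrays with it (mean 6.74 ± 0.108, SD, n = 4) and 6.27, 6.37, 6.34 and 6.52 without it (6.38 ± 0.108, SD, n = 4). XPC read 7.32, 7.50, 7.43 and 7.62 with it (7.47 ± 0.124, SD, n = 4) and 7.20, 7.17, 7.10 and 7.23 without it (7.18 ± 0.0584, SD, n = 4). The groups did not overlap for these 2 of 31 members, beside 5.15% of all genes, a share near that of the members. In the additive limma fit the estimates were 0.36 (SE 0.063, adjusted p = 0.089) and 0.29 (adjusted p = 0.0977), so neither passed.

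In that fit the RUNX1 shRNA had estimates above 0 for 10 of 31 members, beside 52.8% of all genes, with a median of -0.06. Limma called 0 members and 0 of 12147 genes, with 2580 genes (21.2%) at an unadjusted p under 0.05. At that threshold TNFRSF10B and XPC lay higher, beside 11.2% of all genes. BAX (-0.24), FAS (-0.26), DDB2 (-0.30) and TRIAP1 (-0.48) lay lower, beside 10%, so the share of members was near that over all genes. TRIAP1 read 6.40 with shRUNX1 or shRUNX3 alone and 6.58 with shLuc. It was low only on the 2 arrays with both of these shRNAs (5.48 and 5.57). Its RUNX3 estimate and slope below also take in those 2 low arrays. Without the array labelled shRUNX1 limma called 3 members higher, TNFRSF10B (0.38, adjusted p = 0.0376), XPC (0.33, adjusted p = 0.0456) and TP53INP1 (0.61, adjusted p = 0.0456), the last chosen after its value was seen. That fit called 362 of all 12147 genes higher (2.98%) and 455 lower (3.75%), the latter with 0 members. Every array with the RUNX1 shRNA in that fit also carries another RUNX shRNA.

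For the RUNX2 shRNA 24 of 31 estimates were above 0, beside 50.9% of all genes, with a median of 0.09. CYFIP2 (0.43), GADD45A (0.26), TRIM22 (0.25) and TP53I3 (0.20) lay higher and GDF15 (-0.16) lower at an unadjusted p under 0.05, all at limma adjusted p = 0.965, beside 593 genes (4.88%; 3.05% higher and 1.84% lower) in all. CYFIP2 averaged 4.90 ± 0.105 (SD, n = 4) with the shRNA and 4.47 ± 0.183 (SD, n = 4) without. For the RUNX3 shRNA 9 of 31 were above 0, beside 52.1%, with a median of -0.09. POLH (-0.21, limma adjusted p = 0.452) and TRIAP1 (-0.41, adjusted p = 0.517) lay lower at an unadjusted p under 0.05, beside 1141 genes (9.39%; 4.57% higher and 4.82% lower). Limma called 0 genes for either shRNA.

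Over the number of RUNX genes targeted, 15 of 31 slopes were above 0, beside 53.2% of all genes. ZMAT3 (0.25 per gene targeted), TNFRSF10B (0.19) and XPC (0.15) had positive slopes, and TRIAP1 (-0.33), AEN (-0.13), POLH (-0.12) and GDF15 (-0.10) negative ones, at an unadjusted p under 0.05 and limma adjusted p from 0.149 to 0.207. That is 7 of 31, beside 19.1% of all genes, and limma called 0 members and 1 gene of 12147 (0.00823%).

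The array labelled shRUNX1+shRUNX2 was the highest of the 8 knockdown arrays for 12 of 31 members (38.7%), beside 12.2% of all genes, and the lowest for 0, beside 11.2%. The 12 included EDA2R (6.85 against a knockdown median of 6.00), ZMAT3 (6.67 against 6.07), PLK2 (5.98 against 5.48) and TP53INP1 (5.30 against 4.90). Against shLuc that array was above 0 for 22 of 31 members, beside 48.5% of all genes, with a median of 0.10. The array labelled shRUNX1+shRUNX3 was below shLuc for 22 of 31, beside 47.0% of all genes, with a median of -0.11. Over the 8 knockdown arrays a member ranged by 0.157 to 1.23, with a median of 0.459 beside 0.394 over all genes, and EDA2R, TP53INP1 and TRIAP1 ranged by at least 1 (3 of 31, beside 4.76%).

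The triple knockdown against shLuc and Chb-M' against DMSO use different control arrays. Across the 31 members their differences had a Pearson r of 0.10 and a Spearman rho of 0.04, and the sign was the same for 12 (38.7%), beside 48.0% of all genes. This is a correlation across genes of 4 arrays, and genes are not independent replicates.

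A further 30 p53 targets were listed for context, of which 18 were tested. With Chb-M' 14 of 18 lay above DMSO, beside 54.3% of all genes, with a median of 0.21. Limma called 2 of them higher, beside 0.132% of all genes, the cell cycle inhibitor CDKN1A (1.44, adjusted p = 0.047) and PIDD1 (0.97, adjusted p = 0.0344), an adaptor of caspase-2. Neither call held without the level filter, where 0 of 22109 genes were called higher. Leaving out any 1 knockdown array other than shRUNX1 also left 0 of 12147 genes called higher. SUSD6 (-0.42) was the lowest of this list. With Chb-50 10 of 18 lay above, beside 49.5% of all genes, with a median of 0.15, and CDKN1A was at 1.23. Of 17 tested genes listed under p53 and its regulators, 5 lay above DMSO with Chb-M', beside 54.3% of all genes (median -0.15). TP73 (0.41) was highest and HIPK2 (-0.60) lowest, and none passed limma. At an unadjusted p under 0.05, 6 lay lower, beside 7.59% of all genes, and 0 higher, beside 6.31%. SESN2 and GDF15 also answer to ATF4, the factor of the integrated stress response. Of 11 tested ATF4 targets 7 lay above DMSO with each compound, beside 54.3% of all genes for Chb-M' and 49.5% for Chb-50. Their medians were 0.11 and 0.03, with DDIT4 (0.63) highest and DDIT3 (-0.24) lowest with Chb-M'. All 12 DREAM-repressed cell cycle genes lay below DMSO with both compounds (median -0.56 each). Over all 12147 genes 5402 lay below it with Chb-M' and 5958 with Chb-50. Differences of the 12 ran from -1.77 to -0.01 with Chb-M' and from -1.15 to -0.13 with Chb-50. Limma called 0 of the 12 with either compound. At an unadjusted p under 0.05, 5 lay lower with Chb-M', beside 7.59% of all genes, and 2 with Chb-50, beside 5.24%.

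**Figure D4:**
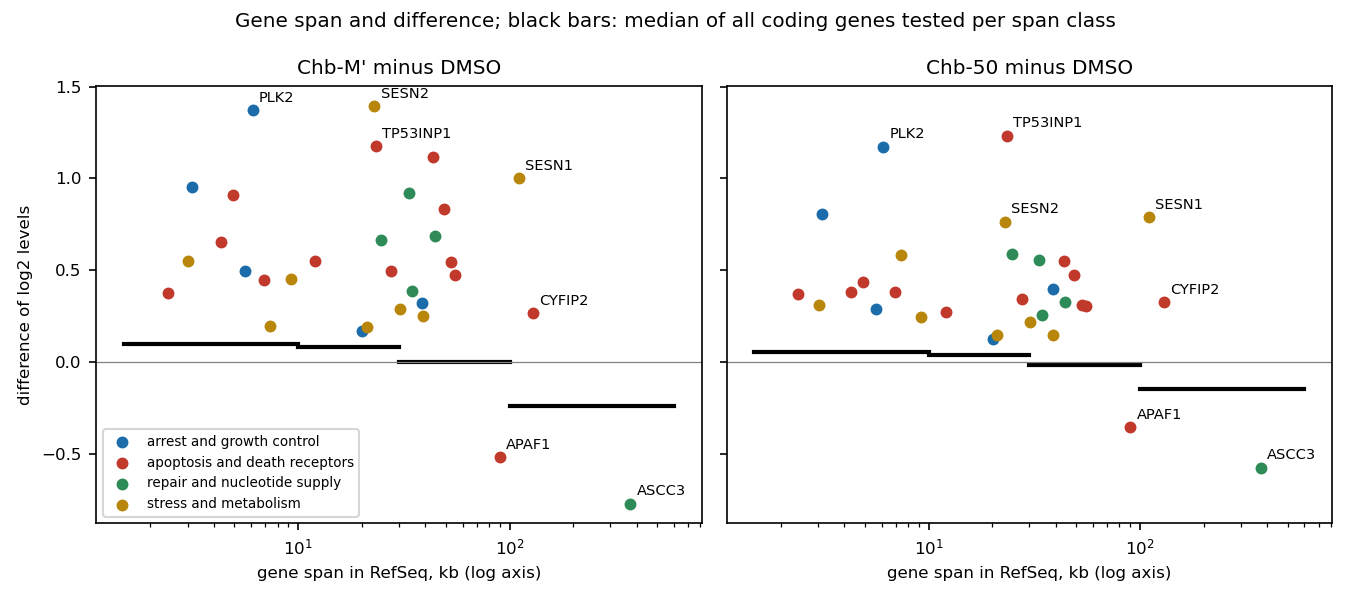
Difference from DMSO (log2) of each of the 31 members against its gene span in RefSeq (kb, log axis), coloured by role, with black bars at the median of all coding genes tested in each span class. Members lie above the bar of their class except APAF1 and ASCC3, whose spans are 90.1 and 373 kb.

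Gene span moved with the compound differences over all genes. With Chb-M' the median difference of all coding genes was 0.10 under 10 kb, 0.08 from 10 to 30 kb, 0.00 from 30 to 100 kb and -0.24 over 100 kb, where 17.6% of 1612 genes lay above 0. Spearman's rho between span and difference was -0.41 over 10579 coding genes and -0.19 over the 31 members, and with Chb-50 it was -0.31 and -0.23. The members spanned 2.42 to 373 kb, with a median of 24.8 kb beside 27.6 kb for coding genes. The members' medians by class with Chb-M' were 0.52 for the 10 shortest, 0.55 for 7, 0.47 for 11 and 0.27 for the 3 over 100 kb. ASCC3, which fell, is the longest at 373 kb, while SESN1 at 111 kb and CYFIP2 at 129 kb lay above DMSO. The part of gene span in the ASCC3 value was not tested.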

How the data were processed

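The deposited table holds 1 log2 level per transcript cluster and array for 11 arrays. Per the submitters' processing notes the authors used RMA, Affymetrix Expression Console 1.3.1 and Transcriptome Analysis Console 1.0, with no order given. RMA summarises probes on a common scale, which can shrink differences. Values ran from 0.48 to 12.74, as log2 levels do. For the array annotation, the genome build was not given in the sources used here. All columns were matched to a sample.

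Of 53617 clusters 23558 had 1 gene symbol, 2155 several and 27904 none listed. Identifiers of 22271 clusters were found in RefSeq, and 3 symbols were updated. Levels are not compared between genes, since probes differ.

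The 8 knockdown arrays were fitted with limma 3.58.1 (R 4.3.3), with 3 additive shRNA terms (4 residual degrees of freedom) or a slope over the number of genes targeted (6). Compound intervals come from a fit over all 11 arrays (7.19 degrees of freedom in all). Adjusted p-values are Benjamini-Hochberg over all 12147 genes tested, with a threshold of 0.05. Nothing in the labels tells whether arrays came from separate cultures, so these p-values measure only how these samples spread, and that spread may be technical. The number of arrays limits the precision. On simulated data over 12147 genes, the Chb-M' fit recovered 0 of 200 genes changed by 0.5 (log2), 111 of 200 changed by 1 and 187 of 200 changed by 2. The simulation gave the compound arrays the spread of the knockdown arrays, so it shares that assumption and cannot check it.

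The members and lists were chosen with earlier results of these data known, so no list was tested as a set. All members are named by role. Those at least 2-fold different, past limma, or among the 2 highest or lowest of a role are described by array, and at most the 2 highest and 2 lowest of each context list. Alternatives covered the level filter, centring, quantile normalization, the mean over clusters, the fold threshold, the prior of the fit, interaction terms and leaving out each knockdown array. Promoter windows and gene spans are from RefSeq for GRCh38.p14.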

Additional observations from a re-analysis of the deposited data

How the results depend on the processing

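No paired analysis was possible because every condition has 1 array and all arrays carry the same replicate number. The values of single members followed here kept their sign under every alternative run. Leaving out a knockdown array cannot change a difference between compound arrays, so for those values it bore only on the limma adjusted p. The shRNA and slope members followed were chosen by an unadjusted p under 0.05 in the main fit, which favours a stable sign. For Chb-M' against Chb-50 and for the triple knockdown only members with the larger differences were followed, which favours it too. The sign of the other members in these comparisons was not followed. The median slope over the number of RUNX genes targeted, -0.01 with no test, was above 0 without shLuc (0.0050), without shRUNX1+shRUNX3 (0.011) and without the triple knockdown (0.0060), and no other median over the members changed sign. For single members, 1285 values kept their side of the threshold or their size, 36 lost a call and 3 gained one. All 36 lost calls were of members called with Chb-M' in the main fit. There GADD45A and XPC kept theirs in 6 of 14 alternatives, and TNFRSF10B and ASCC3 in 4 of 14. The 1285 include members not called under any setting, such as all of those with Chb-50. Without the level filter 0 members were called higher and 0 lower with Chb-M', beside 0% and 0.0317% of all genes. With the mean over clusters 2 were called higher, GADD45A and XPC, beside 0.0911% of all genes, and 0 lower, beside 0.315%. There TNFRSF10B and ASCC3 had a limma adjusted p of 0.0511. A 1.5-fold threshold gave 12 members higher with Chb-M', beside 2.25% of all genes, and 1 lower, beside 390 of 12147 genes. It gave 6 higher with Chb-50, beside 1.39%, and 1 higher for Chb-M' against Chb-50, beside 1.23%. A 3-fold threshold gave 0 higher with Chb-M', 0 higher with Chb-50 and 0 lower in the triple knockdown. Pairwise interaction terms, which leave 1 residual degree of freedom, called 1 member lower with the RUNX1 shRNA, TRIAP1 (limma adjusted p = 0.0458), where 239 of all 12147 genes (1.97%) were called lower. Leaving out each knockdown array in turn, members called with Chb-M' ranged from 0 to 2 higher, beside at most 0.123% of all genes. With Chb-M' 0 were called lower throughout, beside at most 0.51%. For the RUNX1 shRNA 0 to 3 were called higher, beside at most 2.98%. Members above 0 ranged from 8 to 13 for the RUNX1 shRNA and from 5 to 12 for the RUNX3 shRNA. Apart from these construction changes (fewer or more genes, fewer arrays), the cause was not tested.

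Over its 14 alternatives the limma adjusted p with Chb-M' ran from 0.0217 to 0.112 for XPC, 0.0263 to 0.117 for GADD45A, 0.0292 to 0.124 for TNFRSF10B and 0.024 to 0.124 for ASCC3. The alternatives on arrays that do not overlap were chosen after seeing the data. The count of 23 members with both compound arrays above the other 9 was 23 after centring, beside 9.15% of all genes. After quantile normalization it was 23, beside 9.99%, and without shRUNX1+shRUNX2 24, beside 10.4%. The count of 11 below on the 2 arrays with RUNX1 and RUNX3 shRNAs was 11 after centring, beside 14.4%. Quantile normalization gave 10, beside 13.4%, and leaving out shRUNX1+shRUNX2 gave 11, beside 17% against 13.3% with all arrays. Leaving out an array cannot lower either count. Signal over background is unknown, so levels near the filter, such as those of GDF15 and CMBL, are the least certain.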
